A study of Mus musculus with 14 samples.

Results

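Brown preadipocytes at 2h and 4h after the start of adipogenesis were compared with the same line at 1h, to find the genes that decay after the first hour and those that start after it. The 3 libraries (1h, 2h and 4h) are part of a series of 14 RNA sequencing libraries, 1 library a group, and they cover 22835 gene symbols, each represented by the transcript with the highest mean RPKM (reads per kilobase of transcript, scaled to library size) over the 14 libraries. A gene was called higher or lower where log2(RPKM + 1) differed by at least 1 from 1h and the higher of both RPKM values was at least 2, and "rose" and "fell" are used below only for such calls. By this rule 453 symbols were called, 202 lower and 251 higher than at 1h at 2h, 4h or both. No replicate exists, so no test and no p-value is given, and each difference is between 2 libraries, not between conditions measured repeatedly.

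The cells were 1 immortalized line: C57BL/6J brown preadipocytes from interscapular brown fat of newborn pups with both Pparg alleles floxed, carrying SV40 T antigen. The labels name no Cre recombinase, and the floxed alleles are shared by the line's libraries at every time. Confluent cells at 0h were uninduced, and the 1h, 2h and 4h cells had been given the glucocorticoid dexamethasone (1 µM), the phosphodiesterase inhibitor IBMX (0.5 mM), insulin (0.02 µM), thyroid hormone (T3, 1 nM) and the cyclooxygenase inhibitor indomethacin (0.125 mM). The series also holds day 2 and day 7 of the line, 3T3-L1 cells (an immortalized white preadipocyte line) at the same 6 times, and adult and embryonic brown fat. Its title names KLF4, Krox20 (encoded by Egr2) and PPARγ, and the 3T3-L1 libraries carry the same growth and induction text in their labels as the brown line, so the conditions of that line are uncertain.

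A mixture of hormones and a cAMP-raising drug first switches on immediate early genes, whose transcription needs no new protein and whose messenger RNAs carry signals for quick decay. Their products (AP-1, EGR and NR4A factors, phosphatases, RNA-decay proteins) both shut the first signal down and act on later genes, while the glucocorticoid receptor and CREB drive slower targets directly. In preadipocytes this sequence comes before C/EBP factors and PPARγ, which direct the adipocyte program.

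Depth, recovered from the whole-read steps of low RPKM values, was 74.7 M reads at 0h, 39.8 M at 1h, 65.4 M at 2h and 43.0 M at 4h, so that 2 RPKM on a 2-kb transcript stood for 159, 262 and 172 reads at 1h, 2h and 4h. Of the 9 brown lineage markers in the files, 6 reached 1 RPKM between 0h and 4h, and their summed level over all 9 was 41.4 RPKM at 1h, 32.3 at 2h and 44.7 at 4h. Zic1 (2.52, 2.66 and 3.69 RPKM at 1h, 2h and 4h) and Lhx8 (5.72, 5.16 and 10.8), which mark the brown lineage, were listed at 0 in 3T3-L1 from 0h to 4h, and Prdm16 (0.78 RPKM at 1h) as well. Other markers of that list did not separate the lines in this way: at 1h Ebf3 stood at 12.02 RPKM in brown and 11.0 in 3T3-L1 cells, Pdgfra at 4.73 and 24.7 and Pparg at 10.5 and 16.5, and the sum was higher in 3T3-L1, at 54.0 RPKM. Ucp1, the uncoupling protein of mature brown fat, did not pass 0.05 RPKM. Fibroblast and preadipocyte genes summed to 5994 to 6083 RPKM in the 4 early libraries. Of 6 endothelial markers none reached 1 RPKM. Of 9 macrophage and blood markers 2 did, Cd68 and Cd14, with Ptprc and Emr1 at 0, and of 7 skeletal muscle markers 1 did, Acta1. No marker of the brown lineage, endothelial, macrophage and blood or skeletal muscle lists was called in brown cells. Of the fibroblast and preadipocyte genes, Pdgfrb was called lower at 4h.

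At 2h, 60 symbols were lower and 91 were higher than at 1h, which is 0.263% and 0.399% of all symbols and 0.578% and 0.877% of the 10377 with an RPKM of at least 2 in either library. At 4h, 179 were lower and 220 higher, 0.784% and 0.963% of all symbols and 1.7% and 2.09% of 10550. Rescaling by the median of ratios moved the split at 2h to 47 lower and 113 higher. The median log2 difference over expressed symbols was -0.09 at 2h and -0.01 at 4h. Both comparisons share the 1h library, so what is particular to it enters both. In bulk RNA, a lower value from fewer cells that express a gene and one from less RNA per cell cannot be told apart. The exact Poisson 95% intervals of the reads behind the values did not overlap between the libraries for 52 of 55 falls and 90 of 91 rises at 2h, and for 171 of 173 falls and 212 of 218 rises at 4h with a known transcript length. They cover counting error only, for genes already chosen by their difference, and do not show whether a difference stays at the threshold.

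**Figure D1:**
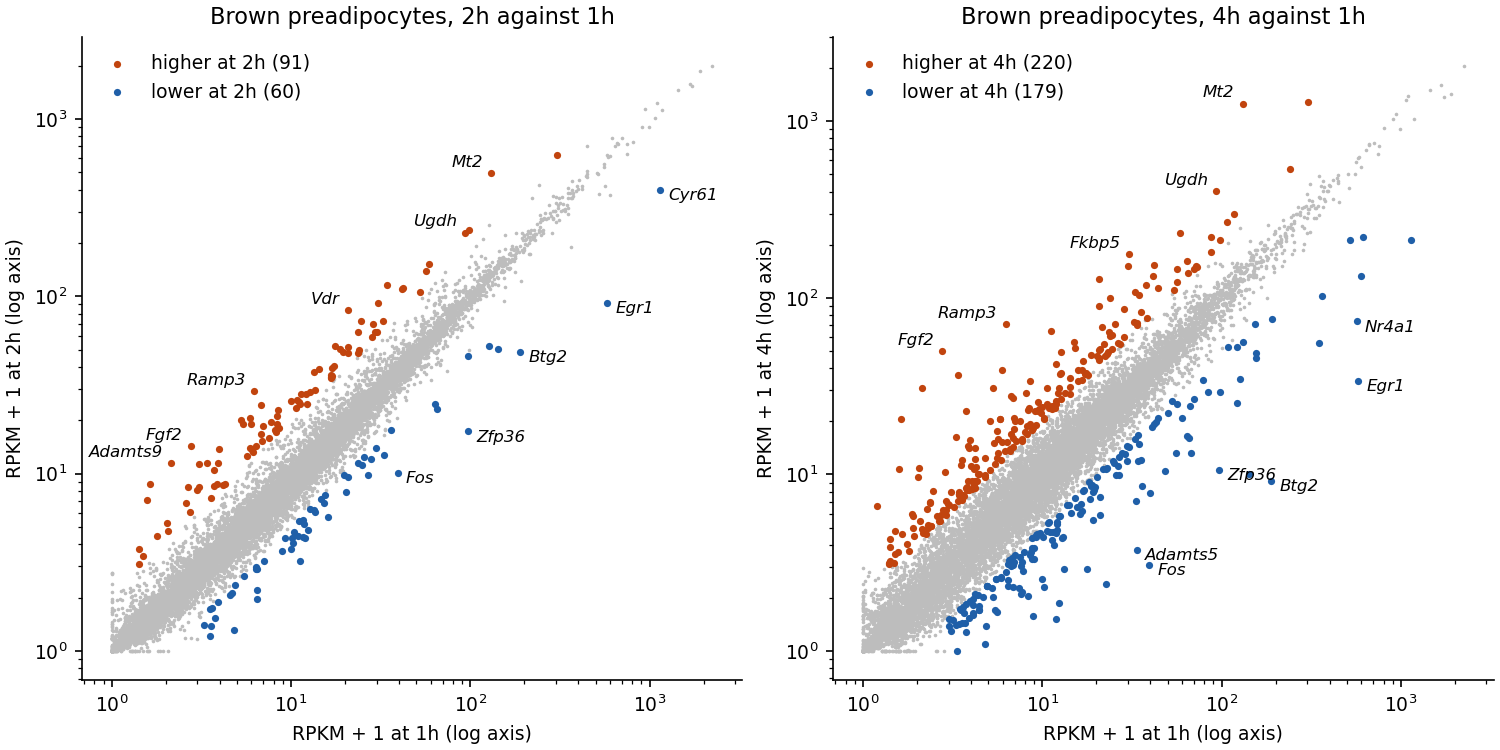
RPKM + 1 in the 2h library (left) and the 4h library (right) against the 1h library of brown preadipocytes, both axes logarithmic, 1 point a gene symbol. Genes called higher (91 at 2h, 220 at 4h) and lower (60 and 179) are coloured, and Egr1 and Btg2 lie far below the diagonal while Ramp3 and Fgf2 lie far above it.

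The 202 falling genes split into 37 that were lower at both times, 23 lower at 2h only and 142 lower at 4h only. The 251 rising genes split into 60 higher at both times, 31 at 2h only and 160 at 4h only. Genes lower at both times had a median of 11.8 RPKM at 0h, 11.0 at 1h, 3.44 at 2h and 3.42 at 4h, the 1h median being close to that at 0h. Genes lower at 4h only went from a median of 11.8 RPKM at 1h through 7.60 at 2h to 3.80 at 4h. Those lower at 2h only were back at 8.20 RPKM at 4h after 10.7 at 1h and 4.51 at 2h. Genes higher at both times had medians of 4.31, 8.25, 23.5 and 31.4 RPKM from 0h to 4h and returned to 6.34 at day 2 and 5.65 at day 7. Genes higher at 4h only had medians of 5.68, 9.13 and 15.7 RPKM at 1h, 2h and 4h. By these medians the rise was transient, but the line's libraries of day 2 and day 7 are, by their labels, also held by a second series, and their files have differently styled headers, so a batch cannot be told apart from time there. Between 2h and 4h themselves, 64 symbols fell (0.616% of 10389) and 95 rose (0.914%).

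Because IBMX raises cAMP, promoters of the genes named by rule were searched for the full cAMP response element TGACGTCA, which reads the same on both strands. Genes described below that were not named by rule, such as Pde4d, Rgs2 and Nr4a2, were not searched. A promoter window, 250 bases before to 50 after the start, from the RefSeq table of build GRCm38.p6, was matched for 68 of the 111 genes named by rule. The element stood in 5 of these windows, and 1.79% of all 32851 promoters in that table hold it. With so many named genes unmatched, and some of them taken from the cAMP-responsive list, nothing is read from these numbers side by side. The 5 belong to genes that went both ways after 1h: Btg2 (chr1:134079106-134079405, minus strand), Dusp1 (chr17:26508423-26508722, minus) and Plk2 (chr13:110394794-110395093, plus) fell, and Areg (chr5:91139349-91139648, plus) and Has1 (chr17:17855139-17855438, minus) rose. They are printed 5′ to 3′ in the direction of the gene, with the element in capitals. Fewer than 80% of the called genes were in the table (67.6% to 74.5% of each set), so a share over called genes would be void and is not given.
Btg2: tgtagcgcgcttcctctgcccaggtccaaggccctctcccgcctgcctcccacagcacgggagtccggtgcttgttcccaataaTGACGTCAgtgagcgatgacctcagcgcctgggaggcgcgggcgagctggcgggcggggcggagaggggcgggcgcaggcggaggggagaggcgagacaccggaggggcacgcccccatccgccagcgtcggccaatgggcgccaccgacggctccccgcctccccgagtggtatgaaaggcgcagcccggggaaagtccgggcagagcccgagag
Dusp1: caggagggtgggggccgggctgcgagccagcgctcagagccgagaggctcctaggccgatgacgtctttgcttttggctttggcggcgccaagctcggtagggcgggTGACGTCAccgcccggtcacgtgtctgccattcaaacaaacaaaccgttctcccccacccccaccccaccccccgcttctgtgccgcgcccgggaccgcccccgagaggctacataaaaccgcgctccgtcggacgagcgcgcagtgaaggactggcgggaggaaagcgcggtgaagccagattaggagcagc
Plk2: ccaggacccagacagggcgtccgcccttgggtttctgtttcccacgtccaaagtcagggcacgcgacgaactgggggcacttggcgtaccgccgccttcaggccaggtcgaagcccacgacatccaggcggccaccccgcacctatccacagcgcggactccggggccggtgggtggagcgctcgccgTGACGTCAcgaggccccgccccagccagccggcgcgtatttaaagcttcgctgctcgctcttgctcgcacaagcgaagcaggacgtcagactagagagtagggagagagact
Areg: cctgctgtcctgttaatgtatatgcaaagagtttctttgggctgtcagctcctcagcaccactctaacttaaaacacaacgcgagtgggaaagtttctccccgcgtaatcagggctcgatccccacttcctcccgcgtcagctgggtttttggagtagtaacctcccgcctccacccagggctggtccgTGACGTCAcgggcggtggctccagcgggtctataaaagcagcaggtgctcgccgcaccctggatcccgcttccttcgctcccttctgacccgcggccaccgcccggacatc
Has1: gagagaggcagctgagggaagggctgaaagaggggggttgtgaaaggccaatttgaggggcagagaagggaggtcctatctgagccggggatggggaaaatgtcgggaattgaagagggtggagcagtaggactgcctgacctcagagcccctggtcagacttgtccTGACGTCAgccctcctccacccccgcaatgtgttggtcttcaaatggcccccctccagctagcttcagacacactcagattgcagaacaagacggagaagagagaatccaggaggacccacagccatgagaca
The element lies at a different distance from the start in each window, and a match is a description of the letters only. Also searched on both strands were the core TGACG of the same element, which the full element contains (20.8% of all promoters), ACANNNTGT of glucocorticoid response elements (6.85%), the E-box CACGTG (7.15%), the EGR site GCGGGGGCG (2.91%), the AP-1 sites TGACTCA and TGAGTCA (5.20%), TATAAA (13.6%), the C/EBP site TTNCNNAA with A or G at the first and second N and C or T at the third (3.77%) and the serum response CArG box (1.63%), and these are not described further.

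Immediate early transcription factors fell, some at 2h and more at 4h. Of 25 members with at least 2 RPKM, 6 fell and 2 rose at 2h, and 16 fell and 0 rose at 4h. Over all symbols with at least 2 RPKM, 0.578% fell and 0.877% rose at 2h, and 1.7% fell and 2.09% rose at 4h. The median log2 difference of the list was -0.34 at 2h and -1.20 at 4h. Egr1, a zinc finger factor, stood at 218 RPKM at 0h, 577 at 1h, 91.2 at 2h and 32.9 at 4h, a log2 difference from 1h of -2.65 at 2h and -4.09 at 4h. Fos, an AP-1 subunit, measured 6.77 RPKM at 0h, 38.3 at 1h, 9.10 at 2h and 2.07 at 4h. Its relative Fosb measured 1.20 RPKM at 0h, 11.0 at 1h, 3.35 at 2h and 0.51 at 4h. By 4h both were below their uninduced level, with log2 differences from 1h of -3.68 and -2.99. Klf6, a Krüppel-like factor, measured 50.3 RPKM at 0h, 64.4 at 1h, 22.2 at 2h and 15.1 at 4h, also ending below 0h, and Klf2, an inhibitor of adipogenesis, measured 11.8 RPKM at 0h, 5.42 at 1h, 0.96 at 2h and 1.54 at 4h, so that Klf2 was already lower at 1h than at 0h. Ier2, an early nuclear protein, went from 126 RPKM at 1h to 51.5 at 2h and 33.8 at 4h.

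Other factors of the list were called lower at 4h and not at 2h. Junb, another AP-1 subunit, measured 64.2 RPKM at 0h, 349 at 1h, 289.9 at 2h and 54.7 at 4h, and Nr4a1, an orphan nuclear receptor induced by cAMP, 24.0 RPKM at 0h, 566 at 1h, 418 at 2h and 72.8 at 4h. Their log2 differences were -0.27 and -0.44 at 2h and -2.65 and -2.94 at 4h. Egr3 measured 5.29 RPKM at 0h, 21.8 at 1h, 12.5 at 2h and 1.41 at 4h, a difference of -0.76 at 2h and -3.24 at 4h. Csrnp1 (47.6, 42.1 and 9.45 RPKM at 1h, 2h and 4h), the stress-induced factor Atf3 (19.9, 15.5 and 4.87), Fosl2 (120.3, 138 and 51.6), Mafk (14.3, 14.3 and 6.33) and Srf (42.2, 36.8 and 18.9), the factor that drives many early genes, were also called only at 4h. The 2 factors called higher at 2h were Klf4 and Nr4a3. Jun and Myc were called at neither time, with 34.0, 18.8 and 23.8 and 102, 66.0 and 74.0 RPKM at 1h, 2h and 4h.

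The factors of the series title took separate courses. Egr2 measured 9.39 RPKM at 0h, 54.4 at 1h, 39.2 at 2h and 12.2 at 4h, with log2 differences of -0.46 at 2h and -2.07 at 4h, and it was called lower at 4h only. In 3T3-L1 it measured 39.9, 7.12 and 1.78 RPKM at 1h, 2h and 4h and was called lower at both times. Klf4, an early activator of adipogenesis, measured 8.40 RPKM at 0h, 12.5 at 1h, 28.5 at 2h and 17.7 at 4h, called higher at 2h (1.12) and not at 4h (0.47). Pparg measured 9.50 RPKM at 0h, 10.5 at 1h, 8.79 at 2h and 11.7 at 4h and was called at neither time. Cebpb, which acts upstream of Pparg, measured 49.0 RPKM at 0h, 220.2 at 1h, 358 at 2h and 277 at 4h, with differences from 1h of 0.70 and 0.33 that passed no threshold. Among 21 adipogenic transcription factors with at least 2 RPKM, 2 rose and 0 fell at 2h, and 1 rose and 1 fell at 4h. Over all such symbols, 0.877% rose and 0.578% fell at 2h, and 2.09% rose and 1.7% fell at 4h. The other rise in the list was Tle3, a corepressor that favours adipogenesis, at 15.7, 33.8 and 38.0 RPKM at 1h, 2h and 4h, called at both times.

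Of 10 measured genes on a list of messenger RNA decay and antiproliferative early genes, 2 fell at 2h and 3 at 4h, against 0.578% and 1.7% of all symbols with at least 2 RPKM. The list median was 0.14 at 2h and -0.19 at 4h. Btg2, an antiproliferative protein that recruits a deadenylase, measured 17.8 RPKM at 0h, 188 at 1h, 47.7 at 2h and 8.20 at 4h, a log2 difference of -4.36 at 4h, the largest fall of all symbols with at least 10 RPKM. Zfp36 (tristetraprolin), which binds AU-rich messenger RNAs for decay, measured 20.3 RPKM at 0h, 95.9 at 1h, 16.4 at 2h and 9.67 at 4h and was called lower at both times (-2.48 and -3.18). Arc, known as an early gene of neurons, held 33.0 RPKM at 2h after 39.0 at 1h and reached 6.83 at 4h. These were the 3 falls at 4h, and the first pair had fallen at 2h.

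**Figure D2:**
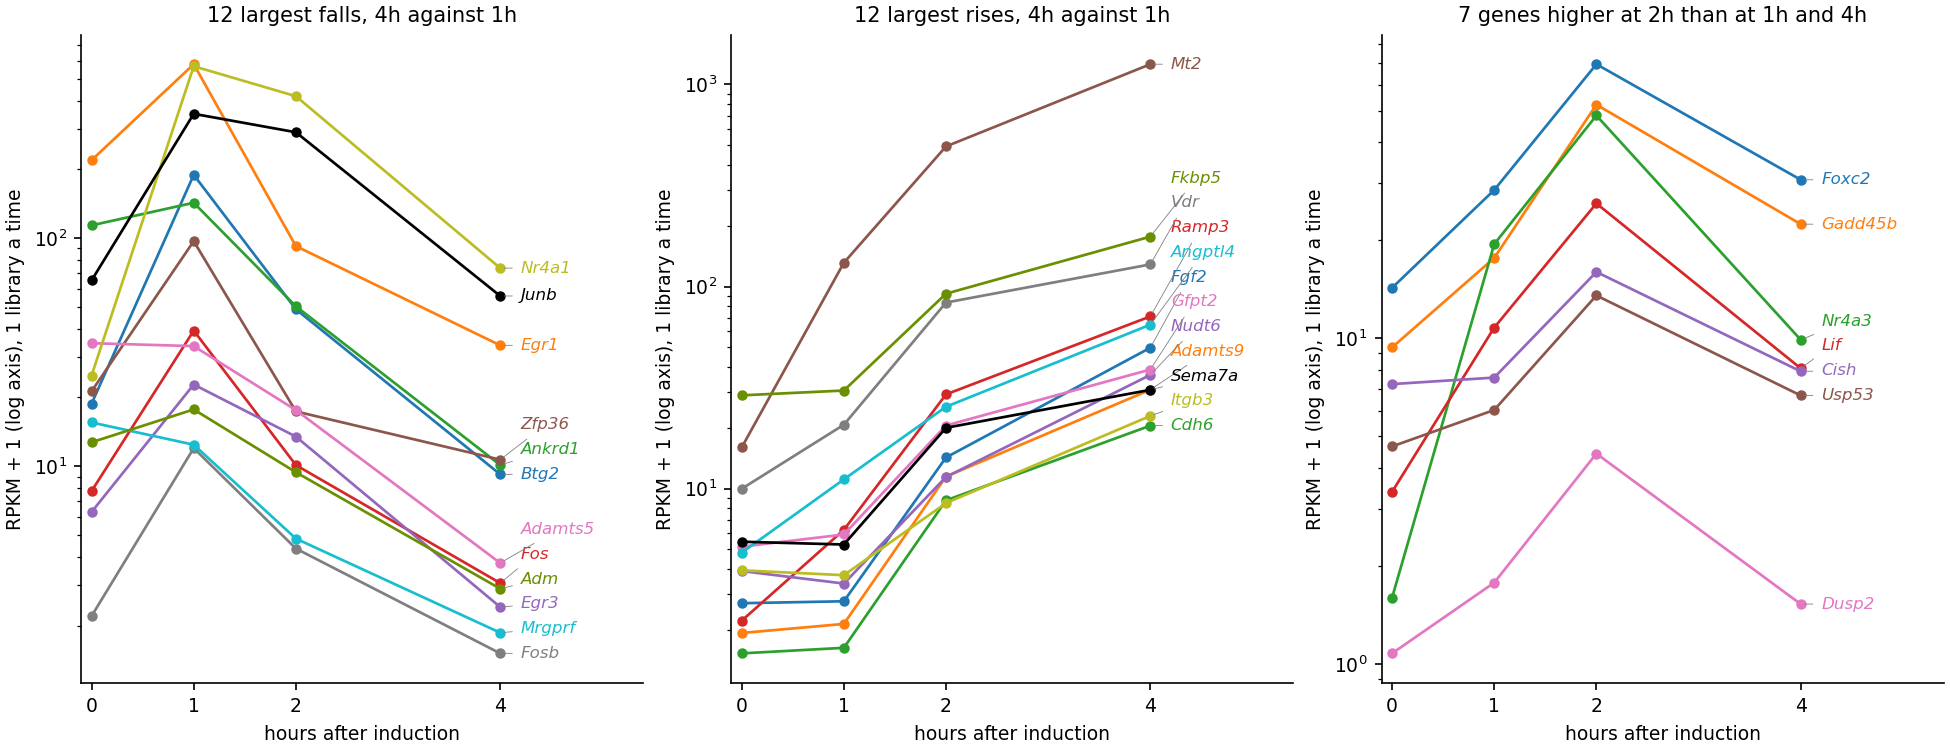
RPKM + 1 (log axis) against hours after induction in brown preadipocytes, 1 library a time, for the 12 largest falls and 12 largest rises at 4h against 1h with at least 10 RPKM and for the 7 genes that rose at 2h and fell again by 4h. Most falling genes peak at 1h, whereas Adamts5 and Mrgprf were as high or higher at 0h, and most rising genes were near their 0h level at 1h.

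Among negative regulators of MAP kinase and growth factor signalling, 1 of 15 measured members rose and 0 fell at 2h (0.877% and 0.578% of all symbols with at least 2 RPKM), and 4 of 14 fell and 0 rose at 4h (1.7% and 2.09%). The list median was -0.20 at 2h and -0.76 at 4h. The rise at 2h was Dusp2, described below. Dusp1, a phosphatase of MAP kinases, measured 27.5 RPKM at 0h, 154 at 1h, 93.0 at 2h and 47.8 at 4h, a difference of -1.66 at 4h. Dusp5, which acts on ERK, measured 16.5 RPKM at 0h, 65.5 at 1h, 93.9 at 2h and 23.3 at 4h, the highest of its 4 values being at 2h. Spry2, an inhibitor of receptor tyrosine kinase signalling, measured 27.0 RPKM at 0h, 83.3 at 1h, 58.0 at 2h and 28.3 at 4h. Errfi1, an inhibitor of the EGF receptor, went from 517 RPKM at 1h to 378 at 2h and 213 at 4h. None of these 4 was called at 2h, when 3 of them were lower and Dusp5 was higher than at 1h by less than the threshold, and each was still at or above its 0h level at 4h.

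Targets of SRF, YAP and TGFβ signalling fell in 3 of 18 measured members at 2h and 5 of 18 at 4h, and 1 member rose at each time. Of all symbols with at least 2 RPKM, 0.578% fell at 2h and 1.7% at 4h, and 0.877% rose at 2h and 2.09% at 4h. Ankrd1, a muscle ankyrin repeat protein and YAP target, measured 113 RPKM at 0h, 142 at 1h, 49.2 at 2h and 9.11 at 4h, a log2 difference of -3.82. Unlike most early factors it was already high at 0h and ended far below that level. Cyr61, a secreted matricellular protein, measured 349 RPKM at 0h, 1138 at 1h, 398 at 2h and 211 at 4h and was called at both times, and its relative Ctgf measured 211 RPKM at 0h, 599 at 1h, 370.1 at 2h and 133 at 4h and was called at 4h. Thrombospondin 1 (Thbs1) reached 777 RPKM at 2h from 617 at 1h and fell to 220.0 at 4h. Edn1, the vasoconstrictor endothelin-1, was low, at 3.32 RPKM at 0h, 3.81 at 1h, 0.32 at 2h and 0.10 at 4h, and its calls at both times ended with a minimum of 5 RPKM. The rise was Smad6, an inhibitor of BMP signalling, at 4.99, 18.1 and 14.3 RPKM at 1h, 2h and 4h.

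Of 11 measured chemokines and cytokines, 1 rose and 0 fell at 2h, and 1 rose and 2 fell at 4h. Over all symbols with at least 2 RPKM, 0.877% rose and 0.578% fell at 2h, and 2.09% rose and 1.7% fell at 4h. The rise at 2h was Lif, described below. Cxcl1, a neutrophil-attracting chemokine, measured 3.98 RPKM at 0h, 66.6 at 1h, 40.8 at 2h and 12.3 at 4h, and Ccl2, which attracts monocytes, 60.5 RPKM at 0h, 152 at 1h, 125 at 2h and 69.8 at 4h. Both were called at 4h only, with differences of -2.35 and -1.12. Ptgs2, the inducible cyclooxygenase that indomethacin inhibits, measured 46.7 RPKM at 0h, 121 at 1h, 99.1 at 2h and 24.3 at 4h, a difference of -2.27 and the 1 fall among 8 prostaglandin genes. Il11, a cytokine of the IL-6 family, was low and rose at 4h, at 0.50, 1.82 and 2.54 RPKM at 1h, 2h and 4h, a call that ended with a minimum of 5 RPKM. Of 11 feedback genes of NF-kB and STAT signalling, 1 fell and 2 rose at 4h: Tnfaip3 (A20) fell at both times (5.42, 1.90 and 1.35 RPKM), while Socs2 (7.38, 14.2 and 22.9) and Socs3 (8.12, 13.6 and 22.0), inhibitors of cytokine receptors, rose then.

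Adamts5, a protease of the proteoglycan aggrecan, measured 33.6 RPKM at 0h, 32.6 at 1h, 16.6 at 2h and 2.76 at 4h, a difference of -3.16 at 4h. Mrgprf, an orphan G protein-coupled receptor, measured 14.5 RPKM at 0h, 11.4 at 1h, 3.81 at 2h and 0.86 at 4h. Both were about as high or higher at 0h than at 1h. Osr1, a zinc finger factor of mesenchymal cells, measured 22.0 RPKM at 0h, 15.0 at 1h, 4.71 at 2h and 9.43 at 4h and was called at 2h only. Irgm1, an interferon-inducible GTPase, stood at 25.8, 8.89 and 8.97 RPKM at 1h, 2h and 4h, Fam110b at 10.3, 2.21 and 3.26 and the Krüppel-like factor Klf7 at 10.6, 3.40 and 2.98, each called at both times. Klf7, unlike Adamts5 and Mrgprf, was lower at 0h (7.70 RPKM) than at 1h. Klf2, Klf7 and Osr1 were the 3 falls at 2h among 18 anti-adipogenic regulators, and at 4h the 3 were Klf2, Klf7 and Zfp521 (8.04, 4.68 and 2.31 RPKM at 1h, 2h and 4h), a zinc finger inhibitor of adipogenesis. Over all symbols with at least 2 RPKM, 0.578% fell at 2h and 1.7% at 4h. The list median was -0.32 at 2h and -0.10 at 4h.

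Other called falls came from several lists. Adra1d, an alpha-1 adrenergic receptor, measured 13.1 RPKM at 0h, 8.95 at 1h, 2.76 at 2h and 1.55 at 4h, and Irs1, the docking protein of the insulin receptor, 13.6 RPKM at 0h, 9.92 at 1h, 3.44 at 2h and 4.36 at 4h. Both were called at 2h and at 4h. Rarg, a retinoic acid receptor, measured 35.2 RPKM at 0h, 34.6 at 1h, 21.2 at 2h and 11.1 at 4h, and the platelet-derived growth factor receptor Pdgfrb 54.5 RPKM at 0h, 49.4 at 1h, 34.9 at 2h and 21.4 at 4h, both called at 4h only. Plk2, a stress-induced kinase and p53 target, measured 103 RPKM at 0h, 96.5 at 1h, 45.0 at 2h and 28.3 at 4h, and its call at 2h (-1.08) ended under median-of-ratios rescaling. Adm, the vasodilator peptide adrenomedullin, measured 11.7 RPKM at 0h, 16.7 at 1h, 8.40 at 2h and 1.90 at 4h, a difference of -2.61 at 4h.

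Genes known to respond to cAMP formed the largest rising group by count. Of 18 measured members 8 rose and 0 fell at 2h, and of 20 measured at 4h 10 rose and 3 fell. Over all symbols with at least 2 RPKM, 0.877% rose and 0.578% fell at 2h, and 2.09% rose and 1.7% fell at 4h. The list median was 0.85 at 2h and 0.91 at 4h. Ramp3, an accessory protein that turns the calcitonin receptor-like receptor into an adrenomedullin receptor, measured 1.22 RPKM at 0h, 5.25 at 1h, 28.3 at 2h and 70.2 at 4h, differences of 2.23 and 3.51. Its level thus went up while that of Adm, a ligand of that receptor, went down. Vgf, a neuropeptide precursor, measured 0.35 RPKM at 0h, 0.58 at 1h, 6.11 at 2h and 9.76 at 4h. Crem, the repressor that CREB induces, measured 1.98 RPKM at 0h, 3.17 at 1h, 7.59 at 2h and 9.79 at 4h, and Rgs2, which damps G protein signalling, 0.87 RPKM at 0h, 16.5 at 1h, 39.7 at 2h and 36.6 at 4h.

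Cyclic nucleotide phosphodiesterases, the enzymes that IBMX inhibits, rose in 4 members of this list by 4h. Pde4d measured 6.74 RPKM at 0h, 9.68 at 1h, 22.4 at 2h and 29.7 at 4h and was called at both times. Pde3b measured 5.38 RPKM at 0h, 5.66 at 1h, 8.05 at 2h and 16.0 at 4h, Pde4b 10.4 RPKM at 0h, 13.2 at 1h, 24.8 at 2h and 27.4 at 4h and Pde10a 1.36 RPKM at 0h, 1.36 at 1h, 1.60 at 2h and 6.01 at 4h, each called at 4h only. The Pde4b difference was just inside the threshold. Pde3b was above 16.0 RPKM later still, at 67.2 at day 2 and 82.9 at day 7. The 3 cAMP-responsive genes that fell at 4h were Adm, Nr4a1 and Nr4a2, the last at 33.2, 55.4 and 15.8 RPKM at 1h, 2h and 4h. In 3T3-L1, 3 members of the list rose and 7 fell at 4h, with a median of -0.69, and this difference between lines was not tested. Falls were also more frequent in that line as a whole. Of its symbols with at least 2 RPKM, 6.09% fell and 3.61% rose at 4h, against 1.7% and 2.09% in brown cells.

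Glucocorticoid-responsive genes rose in 4 of 16 measured members at 2h and 6 of 16 at 4h, while 3 fell at 4h. Of all symbols with at least 2 RPKM, 0.877% rose at 2h, and 2.09% rose and 1.7% fell at 4h. The metallothionein Mt2 measured 15.0 RPKM at 0h, 130.1 at 1h, 493 at 2h and 1259 at 4h, differences of 1.91 and 3.26, and Mt1 117 RPKM at 0h, 304 at 1h, 628 at 2h and 1288 at 4h. Fkbp5, a chaperone that limits glucocorticoid receptor activity, measured 28.0 RPKM at 0h, 29.6 at 1h, 91.2 at 2h and 176 at 4h, so it had not moved by 1h and rose at 2h (1.59) and 4h (2.53). Tsc22d3 (GILZ), an anti-inflammatory glucocorticoid target, measured 7.62 RPKM at 0h, 14.1 at 1h, 25.4 at 2h and 55.4 at 4h. Glul, glutamine synthetase, measured 8.91 RPKM at 0h, 8.42 at 1h, 10.9 at 2h and 24.6 at 4h. Both were called at 4h only. Dexamethasone also induces Sgk1, Errfi1 and Dusp1, and these were the 3 that fell: the kinase Sgk1 measured 54.9 RPKM at 0h, 363 at 1h, 189 at 2h and 101 at 4h.

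Growth factors changed in different ways. Fgf2, basic fibroblast growth factor, measured 1.71 RPKM at 0h, 1.77 at 1h, 13.3 at 2h and 48.8 at 4h, and its log2 difference of 4.17 was the largest rise of all symbols with at least 10 RPKM. Nudt6, which lies antisense to Fgf2 and overlaps it, measured 2.91 RPKM at 0h, 2.39 at 1h, 10.4 at 2h and 35.5 at 4h (3.43). Whether the counting used strand is not stated, so reads of this overlapping pair cannot be told apart. The EGF receptor ligands Areg (0.93 RPKM at 0h, 2.08 at 1h, 10.3 at 2h and 6.95 at 4h) and Ereg (2.51 RPKM at 0h, 5.98 at 1h, 17.5 at 2h and 9.37 at 4h) and the angiogenic factor Vegfa (46.2 RPKM at 0h, 96.9 at 1h, 235 at 2h and 154 at 4h) peaked at 2h. All 3 were called at 2h and of these Areg was still called at 4h. Gdf15, a stress cytokine, measured 24.3 RPKM at 0h, 35.0 at 1h, 16.7 at 2h and 7.64 at 4h, and Hbegf, another EGF receptor ligand, 18.7 RPKM at 0h, 25.5 at 1h, 33.5 at 2h and 10.1 at 4h. Both fell at 4h, and Gdf15 at 2h as well.

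Enzymes that make UDP-sugars for hyaluronan and glycosylation rose without a fall in the list. Of 11 measured members 4 rose at 2h and 3 at 4h, against 0.877% and 2.09% of such symbols. Gfpt2, which feeds fructose-6-phosphate into hexosamine synthesis, measured 4.16 RPKM at 0h, 4.93 at 1h, 19.5 at 2h and 37.8 at 4h. Uap1, which makes UDP-N-acetylglucosamine, measured 28.6 RPKM at 0h, 29.1 at 1h, 61.8 at 2h and 151 at 4h, and Ugdh, which makes UDP-glucuronic acid, 59.4 RPKM at 0h, 92.6 at 1h, 228 at 2h and 402 at 4h. Their differences at 4h were 2.71, 2.34 and 2.11. The hyaluronan synthase Has1 measured 2.02 RPKM at 0h, 6.73 at 1h, 18.7 at 2h and 11.5 at 4h and was called at 2h only, whereas Has2 (10.7, 18.2 and 11.4 RPKM at 1h, 2h and 4h) and Gfpt1 (28.2, 28.0 and 28.8) were called at neither time.

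The largest rises by rule included the following 4 genes. Adamts9, a secreted metalloprotease, measured 0.93 RPKM at 0h, 1.14 at 1h, 10.5 at 2h and 29.9 at 4h, differences of 2.42 and 3.85. Cdh6, a cadherin, measured 0.53 RPKM at 0h, 0.63 at 1h, 7.75 at 2h and 19.5 at 4h, Sema7a, a membrane-anchored semaphorin, 4.46 RPKM at 0h, 4.29 at 1h, 19.0 at 2h and 29.8 at 4h, and Itgb3, integrin beta 3, 2.94 RPKM at 0h, 2.73 at 1h, 7.48 at 2h and 21.9 at 4h. All 4 differed little between 0h and 1h, rose at 2h and were higher still at 4h. Timp1, an inhibitor of metalloproteases, rose at 4h (107, 190.4 and 269 RPKM at 1h, 2h and 4h), while Adamts5 and the urokinase gene Plau (27.8, 26.5 and 11.99) fell. The matrix protease list thus gave 2 rises and 2 falls among 15 at 4h, with a median of -0.20. Over all symbols with at least 2 RPKM, 2.09% rose and 1.7% fell then.

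Receptors, kinases and transcription regulators of the second wave followed. Vdr, the vitamin D receptor, measured 8.98 RPKM at 0h, 19.7 at 1h, 82.3 at 2h and 128 at 4h, differences of 2.01 and 2.64. It was the 1 rise among 14 measured members of a nuclear receptor list that holds no NR4A receptor. In that list 1 member, Rarg, fell at 4h. Over all symbols with at least 2 RPKM, 0.877% rose at 2h, and 2.09% rose and 1.7% fell at 4h. Adra2a, an alpha-2 adrenergic receptor that lowers cAMP, measured 0.98 RPKM at 0h, 1.03 at 1h, 4.25 at 2h and 8.73 at 4h. Sphk1, a sphingosine kinase, measured 1.44 RPKM at 0h, 5.84 at 1h, 23.3 at 2h and 26.0 at 4h. These 3 rose at both times, and the 2h call of Adra2a ended with a minimum of 5 RPKM. Tet2, which oxidizes methylated cytosine, measured 3.83 RPKM at 0h, 4.39 at 1h, 18.1 at 2h and 14.1 at 4h, Atoh8, a basic helix-loop-helix factor, 3.75 RPKM at 0h, 2.94 at 1h, 12.9 at 2h and 14.7 at 4h, and Id4, an inhibitor of such factors, 1.43 RPKM at 0h, 2.73 at 1h, 9.54 at 2h and 7.38 at 4h. Hes1, a repressor downstream of Notch, fell at 4h, from 33.8 to 13.8 RPKM.

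Dgat1, which makes triglyceride, measured 8.09 RPKM at 0h, 11.7 at 1h, 28.1 at 2h and 36.7 at 4h and rose at both times. Scd1, a fatty acid desaturase, measured 84.8 RPKM at 0h, 85.9 at 1h, 105 at 2h and 221 at 4h and rose at 4h. At 4h this made 2 rises and 0 falls among 10 mature adipocyte genes. Over all brown symbols with at least 2 RPKM, 2.09% rose and 1.7% fell then. Of the sterol genes Pmvk rose (from 20.5 to 67.6 RPKM between 1h and 4h) and Insig2 fell (from 17.9 to 7.71 RPKM), and the list median was -0.30 at 4h. In 3T3-L1 the same list had 13 falls and 1 rise and a median of -1.20, a difference that was not tested. Over all 3T3-L1 symbols with at least 2 RPKM, 6.09% fell and 3.61% rose at 4h, and the median over expressed symbols was -0.13. The clock genes Per2 (from 1.89 to 6.06 RPKM) and Dbp (from 5.52 to 2.26 RPKM) were called in opposite directions at 4h, the Dbp call lying on the threshold and ending under median-of-ratios rescaling. The chaperone Hsph1 rose (from 32.6 to 69.0 RPKM), and Igfbp3, which binds insulin-like growth factors, rose (from 4.83 to 19.6 RPKM).

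Numbered zinc finger genes (Zfp), a large family of mostly KRAB repressors, gave 1 rise and 1 fall among 193 measured at 2h and 9 rises and 2 falls among 218 at 4h. The rises and falls at 2h and the falls at 4h were thus no larger a share than over all symbols with at least 2 RPKM (0.877%, 0.578% and 1.7%), and the rises at 4h were 9 of 218 against 2.09%. Their median difference of 0.34 at 4h stood beside -0.01 over all symbols. Zfp52 measured 4.16 RPKM at 0h, 5.91 at 1h, 14.3 at 2h and 20 at 4h and Zfp658 1.58 RPKM at 0h, 0.91 at 1h, 1.73 at 2h and 4.83 at 4h, whose call ended with a minimum of 5 RPKM. Others that rose at 4h were Zfp553 (from 3.27 to 10.0 RPKM), Zfp213 (from 4.68 to 12.2 RPKM), Zfp60 (from 2.00 to 5.72 RPKM), Zfp61 (from 1.38 to 4.12 RPKM) and Zfp12 (from 2.38 to 6.05 RPKM). Each of these 5 was also lower at 1h than at 0h: Zfp553 stood at 7.60 RPKM at 0h, Zfp213 at 5.85, Zfp60 at 3.40, Zfp61 at 2.88 and Zfp12 at 4.00. The 2 falls at 4h were Zfp36 and Zfp521.

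The following 7 genes rose at 2h and fell again between 2h and 4h. Foxc2, a forkhead factor that promotes brown features in fat, measured 13.3 RPKM at 0h, 27.5 at 1h, 68.4 at 2h and 29.7 at 4h. Gadd45b, a stress sensor, measured 8.38 RPKM at 0h, 16.7 at 1h, 51.2 at 2h and 21.4 at 4h, and Nr4a3, the third NR4A receptor, 0.60 RPKM at 0h, 18.5 at 1h, 47.3 at 2h and 8.90 at 4h. Each of these at 4h was back near or below its 1h level. Lif, a cytokine of the IL-6 family, measured 2.38 RPKM at 0h, 9.79 at 1h, 24.95 at 2h and 7.09 at 4h, and Cish, an inhibitor of STAT5 signalling, 6.24 RPKM at 0h, 6.58 at 1h, 15.0 at 2h and 6.92 at 4h. Usp53 measured 3.66 RPKM at 0h, 5.03 at 1h, 12.5 at 2h and 5.68 at 4h, and Dusp2, a phosphatase of MAP kinases, 0.08 RPKM at 0h, 0.78 at 1h, 3.43 at 2h and 0.53 at 4h, its call at 2h ending with a minimum of 5 RPKM.

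Some lists had no call. With at least 1 RPKM, none of 30 cell cycle genes, 15 chromatin coactivators and H3K4 methyltransferases, 82 ribosomal protein genes or 83 oxidative phosphorylation genes was called at 2h or 4h. Ccnd1, the cyclin of early G1, measured 88.0 RPKM at 0h, 82.7 at 1h, 64.7 at 2h and 43.9 at 4h, the largest difference in its list at -0.90. Ribosomal protein genes had a median difference of 0.09 at 2h and 0.18 at 4h. The coactivator gene Ncoa1 measured 5.72 RPKM at 0h, 6.47 at 1h, 4.39 at 2h and 2.82 at 4h, just short of the threshold at -0.97. In all, 104 of the 453 called symbols belonged to 1 of the 30 lists.

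**Figure D3:**
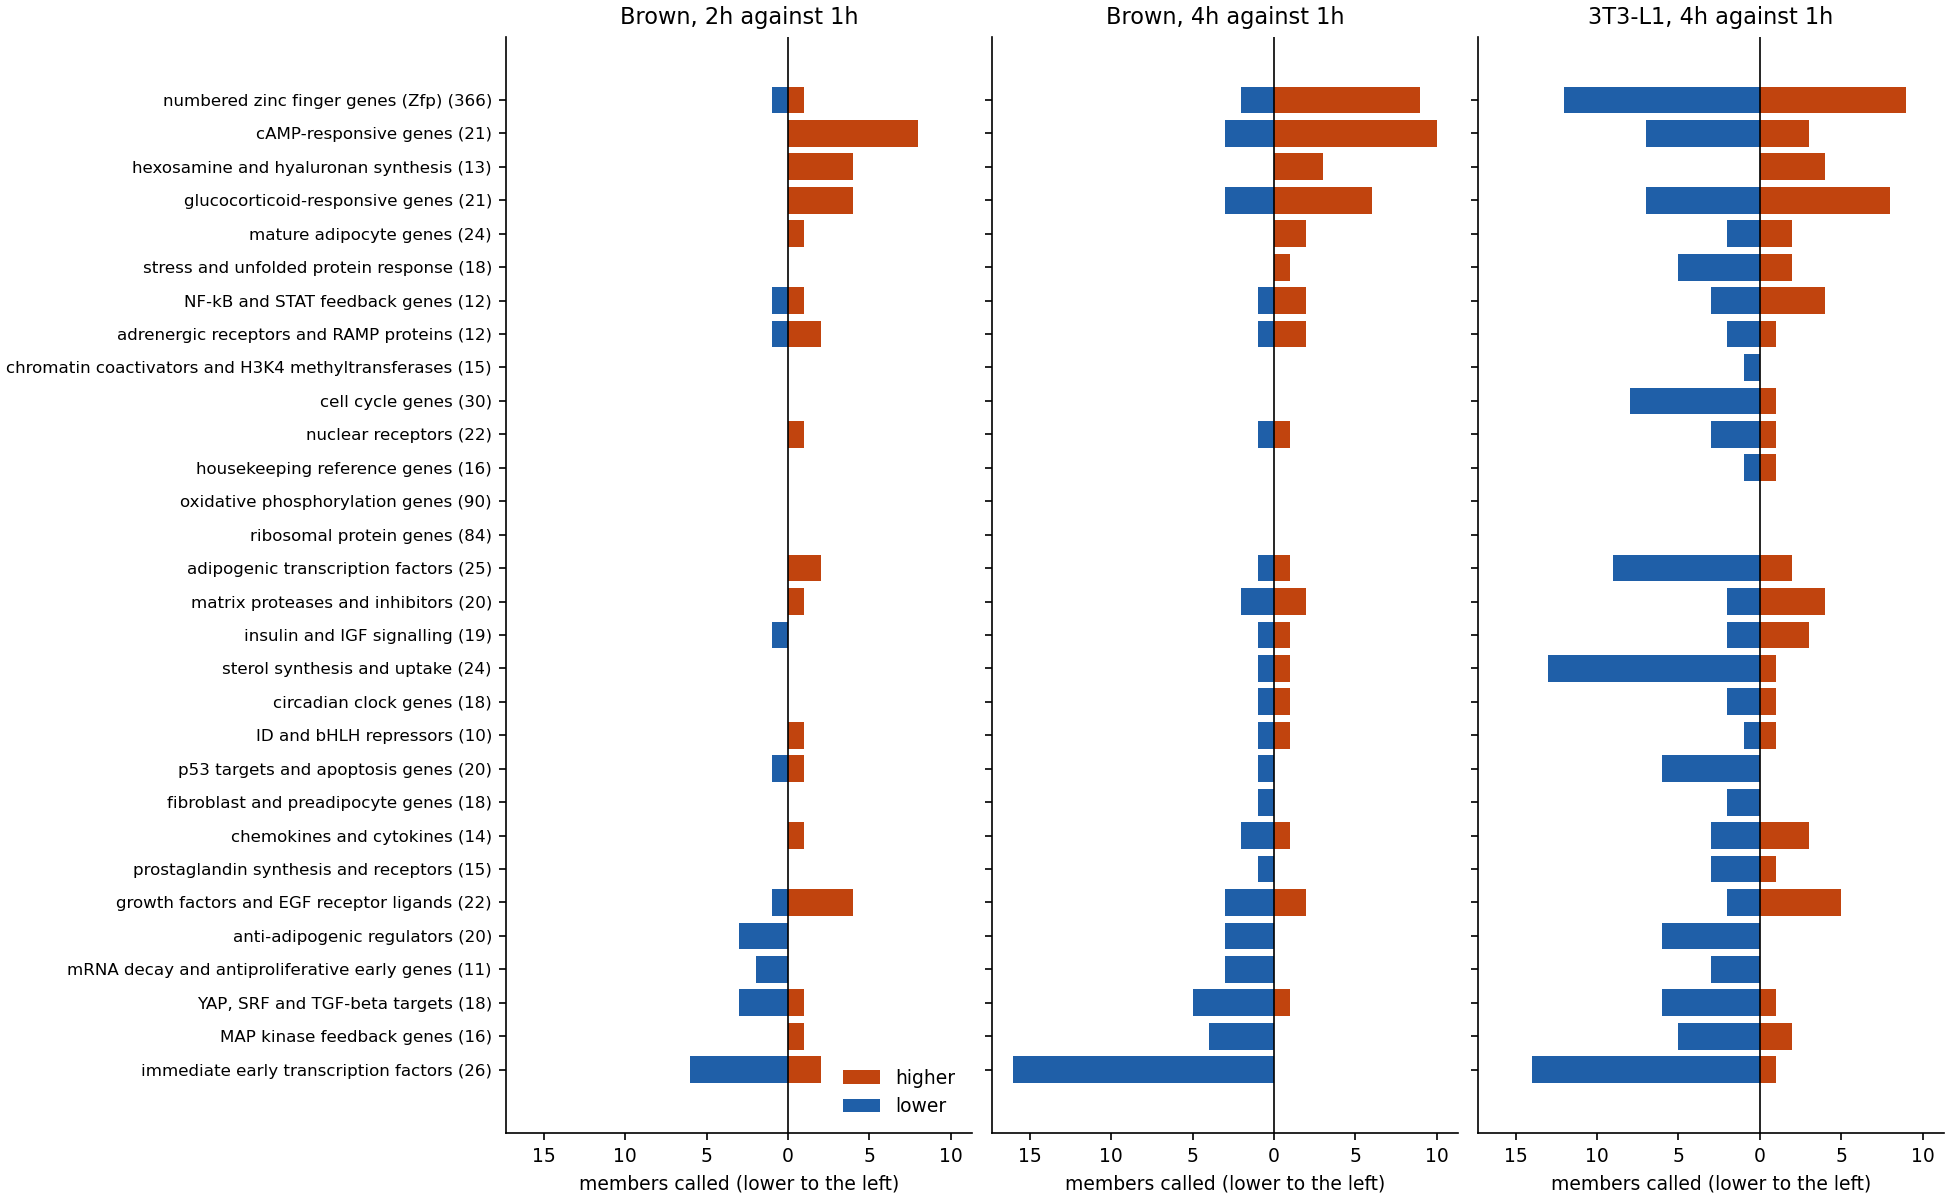
Number of members called higher (right, orange) and lower (left, blue) than at 1h for 30 gene lists, in brown preadipocytes at 2h and 4h and in 3T3-L1 at 4h; the number of members in the files is in parentheses and 1 library was measured a time. In brown cells at 4h the immediate early factors have 16 falls and no rise and the cAMP-responsive genes 10 rises and 3 falls.

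Genes next to the threshold show how sharp it is. At 2h, Kif2c (-1.004) and Hoxc4 (-1.005) were just inside the fall threshold, while Ankrd34a (-0.995) and Tsc22d2 (-0.99) were just outside. Prr5 (1.01) and Rhoj (1.01) were just inside for a rise, and Crispld2 (0.997) and Sdc4 (0.99) just outside. At 4h Chmp4c and Dbp lay on the threshold and were the last falls, and Lats2 (-0.998) and Slc25a24 (-0.997) were not called. The last rises at 4h were Sh3pxd2b (1.0002) and Pde4b (1.001), and Gcc1 (0.999) and Gins3 (0.997) were not called.

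The same comparison in 3T3-L1, whose libraries are separate from those of the brown line, gave 227 falls and 142 rises at 2h (0.994% and 0.622% of all symbols, 2.23% and 1.4% of those with at least 2 RPKM) and 628 falls and 373 rises at 4h (2.75% and 1.63%, 6.09% and 3.61%). Of the brown falls, 42 at 2h (70.0% of the brown and 18.5% of the 3T3-L1 falls) and 110 at 4h (61.5% and 17.5%) were called lower there as well. Of the brown rises, 47 at 2h (51.6% and 33.1%) and 113 at 4h (51.4% and 30.3%) were called higher. The genes that rose at 4h in brown cells had a median difference of 1.23 there and 1.12 in 3T3-L1, and those that fell -1.26 and -1.33. The genes were chosen by their brown differences, so the brown medians had to be at least 1 in size. These pairs of medians therefore do not compare the size of the change between the lines. Across symbols with at least 2 RPKM the differences of both lines had a Pearson r of 0.68 at 2h (n = 10904 symbols) and 0.68 at 4h (n = 11026). The symbols are not independent, and each line's differences share its own 1h library.

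Shared members include the leading falls and rises. Egr1 measured 794, 73.7 and 26.0 RPKM at 1h, 2h and 4h in 3T3-L1, Btg2 353, 66.2 and 19.5 and Fos 189, 17.5 and 5.83. Ramp3 measured 0.38, 4.80 and 23.6, Vdr 49.1, 201 and 394 and Uap1 22.1, 124 and 337. Fkbp5 stood at 52.7, 104 and 189.5. Cdh6, in contrast, did not pass 0.39 RPKM in 3T3-L1 and Areg did not pass 0.10, and neither was called there. Hoxc4 was listed at 0 in 3T3-L1 at 1h, 2h and 4h.

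Called in opposite directions were 2 genes. Angptl4, a secreted inhibitor of lipoprotein lipase that glucocorticoids and PPARs induce, measured 3.82 RPKM at 0h, 10.1 at 1h, 24.4 at 2h and 63.8 at 4h in brown cells, differences of 1.19 and 2.54. In 3T3-L1 it stood at 75.4 RPKM at 0h, 67.3 at 1h, 20.2 at 2h and 15.1 at 4h, differences of -1.69 and -2.08. The level was thus higher in 3T3-L1 at 0h and 1h and higher in brown cells at 2h and 4h. Gem, a small GTPase that inhibits calcium channels, measured 4.10 RPKM at 0h, 7.50 at 1h, 21.9 at 2h and 18.3 at 4h in brown cells. In 3T3-L1 it measured 14.25 RPKM at 0h, 29.7 at 1h, 34.6 at 2h and 11.7 at 4h. The differences at 4h were 1.18 in brown cells and -1.27 in 3T3-L1. With 1 library in each line and time, these differences between the lines were not tested.

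**Figure D4:**
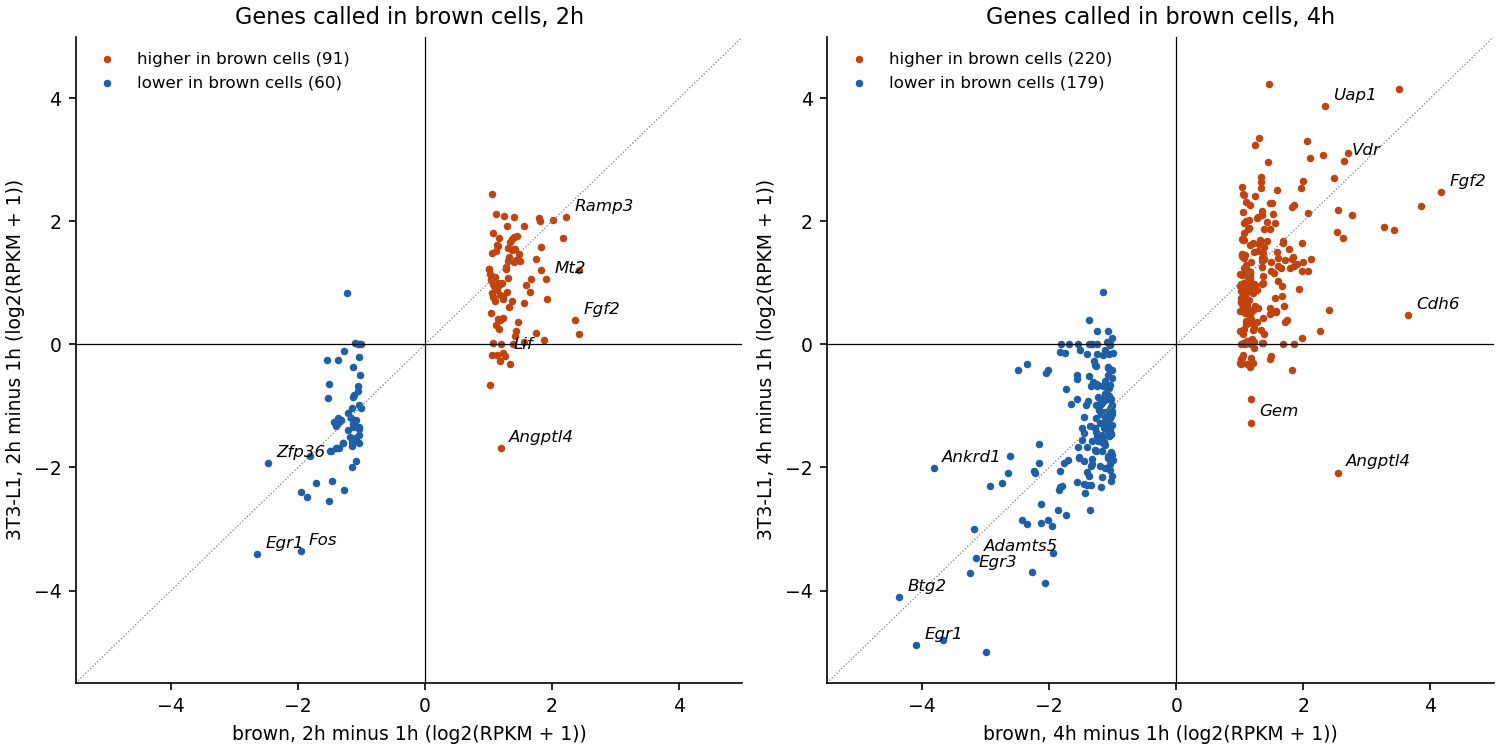
Log2 difference from 1h in 3T3-L1 (vertical) against that in brown preadipocytes (horizontal) for genes called in brown cells at 2h (60 lower, 91 higher) and 4h (179 lower, 220 higher), 1 library a line and time; the dotted line marks equal differences. Most genes lie on the same side of 0 in both lines, and Angptl4 and Gem lie at the lower right, higher in brown and lower in 3T3-L1 cells.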

How the data were processed

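RNA was sequenced from 14 samples with 1 library a group. For the cultures, the authors deposited RPKM values (reads per kilobase of transcript, scaled to library size) of 29082 RefSeq transcripts, per the file headers and names. For the tissues they deposited a read count and an RPKM for each transcript, per the file headers, and these gave the transcript lengths used here for depth. The submitters' processing notes name CASAVA 1.8.2 and the build mm9 without saying for which step. Which aligner and counter were run, and whether strand was used, is not given in the sources used here. RNA was taken up in Trizol and messenger RNA purified on Dynabeads, per the labels' protocols.

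Groups came from the sample titles. Of 49 transcripts whose symbol had become a number, 48 were renamed by accession and 1 was left out. For 3906 symbols with several transcripts, the transcript with the highest mean RPKM over the 14 libraries was kept. Calls used a pseudocount of 1, which understates the change of low genes, a difference of at least 1 on the log2 scale and a minimum of 2 RPKM. Depth came from low values, all whole multiples of 1 read within 0.2 of a read, and reads per gene were given exact Poisson 95% intervals. List medians used members with at least 1 RPKM. Promoters came from a RefSeq table of GRCm38.p6, used for no coordinate of the deposited files. The calls and the depth were tested on simulated data. Python 3.11.15, pandas 2.3.3, numpy 2.4.6, scipy 1.17.1 and matplotlib 3.10.9 were used.

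Genes were named by rule: the 12 largest falls and rises at each time with at least 10 RPKM, up to 4 called members of each of the 30 lists (or the 1 with the largest difference), the 6 largest pulses with at least 10 RPKM at 2h, Klf4, Egr2 and Pparg, genes called in opposite directions in both lines, and 2 genes on each side of the threshold. Of these, 1 gene is not reported here. Other genes were named after their values were seen. The members and lists were chosen with earlier results of these data known. Alternatives were other pseudocounts, minimums and thresholds, a median-of-ratios rescaling, other choices of transcript and, chosen after seeing the data, leaving out small RNAs.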

Additional observations from a re-analysis of the deposited data

Results flagged for a closer look

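The difference from 1h had opposite directions in the 2 lines for 2 genes. This contrast between the lines was not tested because each line has 1 library a time. For Angptl4 the log2 difference from 1h was 2.88 higher in brown than in 3T3-L1 cells at 2h, and 4.63 higher at 4h. For Gem it was 2.45 higher in brown cells at 4h.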

How the results depend on the processing

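No paired analysis was possible because each group holds 1 library and the labels give no replicate numbers, and for the same reason no replicate could be left out. With a pseudocount of 0.1 the brown falls came to 124 at 2h and 310 at 4h and the rises to 343 at 4h. With a log2 difference of at least 1.5, 11 genes fell and 21 rose at 2h, and 52 fell and 62 rose at 4h. All other counts of falls and rises stayed within 1.5 times those reported, under a pseudocount of 0.5, no minimum RPKM or one of 5, median-of-ratios rescaling, the sum over transcripts, the transcript chosen in brown cells, and, an alternative chosen after seeing the data, without small RNAs. Rescaling gave 47 falls and 113 rises at 2h and 170 and 230 at 4h. Of 143 calls of named genes, 64 ended at the threshold of 1.5, 7 with a minimum of 5 RPKM (Adra2a, Dusp2 and Edn1 at 2h, Edn1, Il11, Zfp658 and Chmp4c at 4h) and 6 under rescaling (Plk2, Gdf15, Hoxc4 and Kif2c at 2h, Chmp4c and Dbp at 4h), and none reversed. Among the called symbols, 13 falls and 10 rises are small RNA genes, whose short transcripts make RPKM values uncertain. The Poisson intervals do not show whether a difference stays at the threshold, so how many calls counting error could end was not measured. The spread between cultures was not measured either.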

Other observations

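Other genes called in brown preadipocytes were picked out after their values were seen and belong to no list above. Among them were 5 genes of the mitotic spindle that were lower at 2h and not called at 4h. They were picked by their values, so their shared course says nothing of spindle genes as a group. Over all brown symbols with at least 2 RPKM, 0.578% fell at 2h. Kif2c, a microtubule-depolymerizing kinesin, measured 19.9 RPKM at 0h, 18.7 at 1h, 8.81 at 2h and 16.3 at 4h. The kinesins Kif18b (18.1 RPKM at 0h, 14.5 at 1h, 6.55 at 2h and 13.9 at 4h) and Kif20b (12.6 RPKM at 0h, 10.1 at 1h, 4.41 at 2h and 8.20 at 4h), the spindle protein Aspm (13.5 RPKM at 0h, 10.7 at 1h, 4.51 at 2h and 9.12 at 4h) and Ckap2l (28.5 RPKM at 0h, 24.5 at 1h, 11.5 at 2h and 19.3 at 4h) followed the same course, with differences of -1.09 (Aspm) to -1.004 (Kif2c) at 2h, close to the threshold. Under median-of-ratios rescaling the 2h difference of Kif2c was -0.92 and its call ended. The other spindle genes were not examined 1 by 1 under rescaling, and their differences also lay near the threshold. In 3T3-L1 all of them were called lower at 2h, and all but Kif18b at 4h. None of the 30 cell cycle genes of the list was called in brown cells.

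Gclc, which makes the first step of glutathione synthesis, measured 14.2 RPKM at 0h, 19.7 at 1h, 50.6 at 2h and 89.2 at 4h, and Srxn1, sulfiredoxin, 26.8 RPKM at 0h, 41.0 at 1h, 110.0 at 2h and 152 at 4h, and both rose at 2h and 4h. The proteoglycan versican (Vcan) measured 80.3 RPKM at 0h, 86.6 at 1h, 106 at 2h and 180.2 at 4h, and the basement membrane collagens Col4a1 92.9 RPKM at 0h, 96.8 at 1h, 145 at 2h and 211 at 4h and Col4a2 70.3 RPKM at 0h, 70.8 at 1h, 99.2 at 2h and 150.5 at 4h, all called at 4h only. The Wnt receptor Fzd2 fell (34.5 RPKM at 0h, 26.9 at 1h, 11.1 at 2h and 12.3 at 4h) and its relative Fzd1 rose at 4h (24.8 RPKM at 0h, 24.5 at 1h, 32.4 at 2h and 69.9 at 4h), while the Wnt-enhancing ligand Rspo2 fell (6.69 RPKM at 0h, 7.91 at 1h, 2.67 at 2h and 0.59 at 4h). Penk, the precursor of enkephalins, rose in brown cells (0.69 RPKM at 0h, 2.89 at 1h, 10.5 at 2h and 13.1 at 4h) and did not pass 0.06 RPKM in 3T3-L1 from 0h to 4h.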
